A study of Mus musculus with 8 samples.

Results

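The genes described here are 47 factors of ribosome biogenesis, the making of ribosomal RNA and its assembly into subunits in the nucleolus, out of 24538 genes listed in each RNA library. They were chosen by name with the difference in their RNA level between knockout and control already known from these same libraries, so that difference is given as a description and nothing is rested on it. Every one of the 47 had a single entry in each of the 4 RNA libraries and a mean of at least 1 TPM (a level scaled to transcript length and to the total of the library), so none was lost to the filter on low values. By their known roles 6 belong to RNA polymerase I and its factors, 9 to small nucleolar ribonucleoproteins (snoRNPs), 12 to small-subunit processing, 15 to large-subunit processing and 5 are abundant or regulatory nucleolar proteins.

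The libraries came from mouse bone marrow progenitors (LSK cells) cultured over OP9-DL1 monolayers, stromal cells with a Notch ligand that drives progenitors towards T cells. Mice of both groups were CreER+, that is, they carried a Cre active only with tamoxifen. Control mice were otherwise WT, and knockout mice were Tcf7-floxed and Lef1-floxed. Both kinds of culture received 4-OH tamoxifen from day 3 to day 5. Lin-CD8-CD4-CD44hiCD25- ckit+ cells, the DN1 stage of early T-cell development, were sorted on day 7, giving 2 control and 2 knockout libraries for RNA and the same numbers for ATAC-seq, an assay of open chromatin. The labels do not say which promoter drives the Cre or if the replicates were different mice or cultures, so the p-values below measure only the spread between these libraries, which may be technical.

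Ribosome production begins with RNA polymerase I, which copies the ribosomal DNA repeats into a long precursor RNA. snoRNPs guide the chemical modification of that precursor, and separate sets of processing factors cut it and fold it with ribosomal proteins into the small and large subunits. Growing and dividing cells, early lymphoid progenitors among them, make ribosomes at a high rate, and the transcription factor MYC is a known activator of many of these genes.

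Tcf7, the gene for TCF1 and the target of the deletion, measured 518 and 510 TPM in control against 13.2 and 12.4 TPM in knockout. Lef1 stood between 1.10 and 1.66 TPM in all 4 libraries, so its level does not check its deletion. Kit, used for the sort, stood at 251 and 238 TPM in control and 157 TPM in both knockout libraries. The other genes listed for the sorted progenitors went both ways. Their log2 changes, knockout minus control, were 0.04 (Cd44), 0.50 (Flt3), −0.69 (Ptprc), −1.02 (Notch1) and −2.39 (Il7r). The CD25 gene Il2ra measured 136 and 133 TPM in control, although the gate was CD25-negative, and 0.66 and 0.39 TPM in knockout. Marker genes of other cell types moved with the genotype. Of 8 T-lineage markers, 8 were called lower in knockout (summed level 359 and 365 TPM in control, 16.1 and 18.4 TPM in knockout, with Cd3e listed at 0 in both knockout libraries). Of 8 stromal markers, 7 were called higher (556 and 567 against 1294 and 1071 TPM). So were 8 of 8 mast cell and basophil markers (80.6 and 73.9 against 410 and 415 TPM) and 7 of 8 neutrophil and granulocyte-progenitor markers (1430 and 1432 against 3192 and 3104 TPM). Pdgfrb (log2 change −0.004) of the stromal list and Ltf (0.15) of the neutrophil list were not called. Dll1 held much of the stromal sum (236 and 241 against 671 and 534 TPM). Mpo held most of the neutrophil sum (980 and 979 against 2256 and 2196 TPM). No marker of these 3 lists was at 0 in both libraries of a genotype. Of 20 cell cycle genes, 17 were called higher (2706 and 2710 against 3528 and 3527 TPM), and Top2a, Ccnb2 and Aurka were not called. The call of Mki67 (log2 change 0.14) was lost in 9 of the 13 alternative settings described below. After median-ratio scaling the calls of Mki67, Pcna (0.26) and Bub1 (0.38) were lost, and after quantile normalization those of Mki67 and Pcna. Those of Ccne1 (0.64) and Ccne2 (0.97) did not hold in every setting with 1 library left out. Beside these counts, 25.2% of all tested genes were called higher and 14.7% lower. The part of these shifts in the results below was not tested, and in bulk RNA a change in the mix of cells cannot be told apart from a change within cells.

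All 47 genes stood higher in both knockout libraries than in both control libraries, a pattern that 44.4% of the 13228 tested genes also showed. Together they made up 0.572% of all TPM in control and 0.821% in knockout, with sums of 5730 and 5714 TPM in control against 8045 and 8375 TPM in knockout. The median log2 change on the log2(TPM + 1) scale, knockout minus control, was 0.67 for these genes against 0.09 for all tested genes. The changes ran from 0.16 for Polr1c to 1.30 for Lyar, with 11 genes under 0.5, 31 between 0.5 and 1 and 5 at 1 or above. In limma's fit over all tested genes, 46 of the 47 were called higher (adjusted p under 0.05) and Polr1c was not called, beside 25.2% of all genes called higher and 14.7% called lower. Among the 10314 genes with a mean of at least 5 TPM, a level every one of the 47 exceeded, 30.6% were called higher. Because the genes were picked with this contrast in view, the counts are a description. All 47 changes were above 0 under each of 13 alternative settings, including those that rescale the libraries, but fewer calls held. Between 41 and 46 genes were called higher in a given alternative, 41 of them without control replicate 1 or without knockout replicate 1, and 38 were called in every one. A single non-coding RNA, Rpph1, took 19.3% and 19.2% of all TPM in the control libraries against 15.2% and 15.8% in the knockout libraries, and since TPM has a fixed total, its lower share raises the TPM of the other genes in knockout. With TPM rescaled without Rpph1 the median log2 change of the 47 was 0.61, that of all genes was 0.03, and 43 of the 47 were called.

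**Figure D1:**
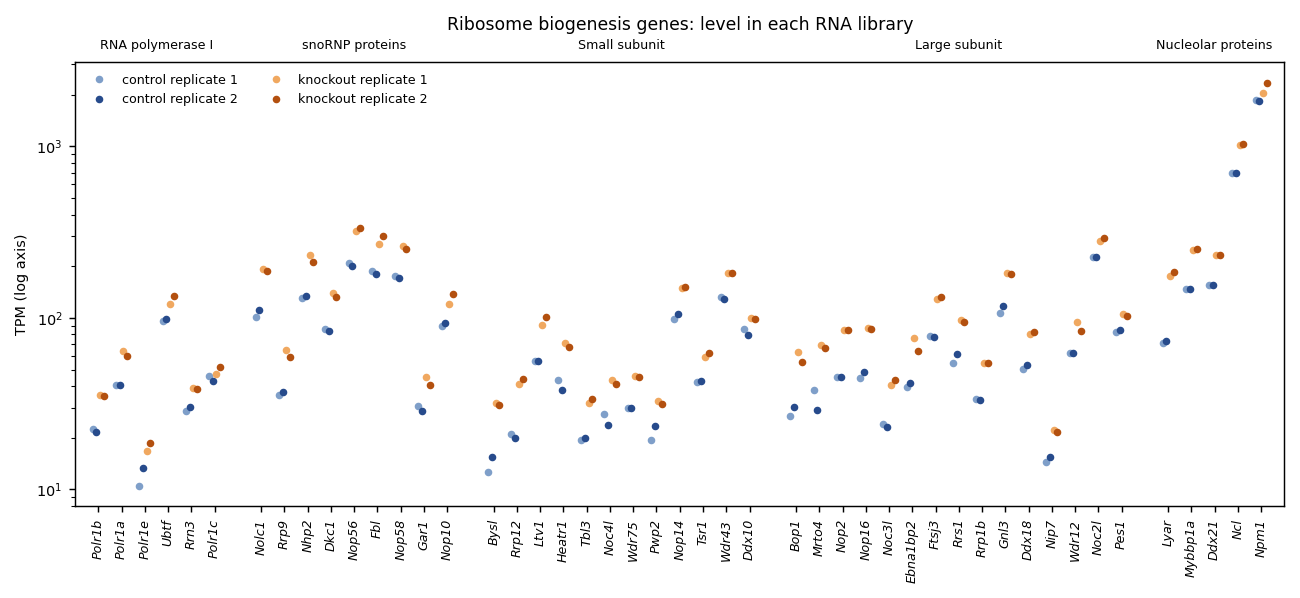
Level of each of the 47 genes (TPM, log axis) in the 2 control (blue) and 2 knockout (orange) RNA libraries, grouped by role and ordered within a group by the size of the change. For every gene both orange points lie above both blue points, closest for Polr1c (45.9 and 42.6 against 46.9 and 51.9 TPM), and levels span from 10.5 TPM (Polr1e) to 2350 TPM (Npm1).

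The spans of 10 of the 47 genes overlap a gene on the opposite strand, and the sources used here do not say if reads were assigned by strand, so reads of the partners may be mixed in their values. The partner with the highest mean level was Idh3b (139.9 TPM) for Nop56, followed by Ccnd3 (96.1 TPM) for Bysl, Mpp1 (55.5 TPM) for Dkc1, Rmnd5b (41.3 TPM) for Nhp2 and Mroh1 (15.4 TPM) for Bop1. The partners of Gnl3, Tsr1, Wdr12, Polr1e and Noc2l had means from 10.03 TPM (Glt8d1, for Gnl3) down to 1.38 TPM (Samd11, for Noc2l).

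Near the starts of these genes, open chromatin was found in every ATAC library, though not always over the start itself. The only Ubtf peak of control replicate 2 in this window ran from 102319361 to 102319625, off the start at 102319096. A peak lay within 500 bases of the gene start in all 4 peak lists for 47 of 47 genes, beside 85.2% of all tested genes. Ranked by the authors' −log10 q within its own list, the promoter peak of the median gene of the set stood at the 91.8th and 92.8th percentile of all peaks in the control lists and at the 94.5th and 93.9th in the knockout lists. For all tested genes with a promoter peak the medians were the 89.7th and 89.8th percentile in control and the 91.9th and 92.0th in knockout. The strongest promoter peaks were those of Nop14, at the 99.8th percentile or above in each list, and Rrp9, Ncl and Rrs1, all above the 99th. The lowest-ranked were those of Ubtf (66.5 and 63.5 in control, 64.0 and 53.6 in knockout), Polr1a (64.7 and 61.5, then 74.8 and 74.8) and Pes1 (67.2 and 67.4, then 73.3 and 74.9). Peak lists carry no read counts, so no test between genotypes was made, and ranks in lists of different lengths show no change.

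**Figure D2:**
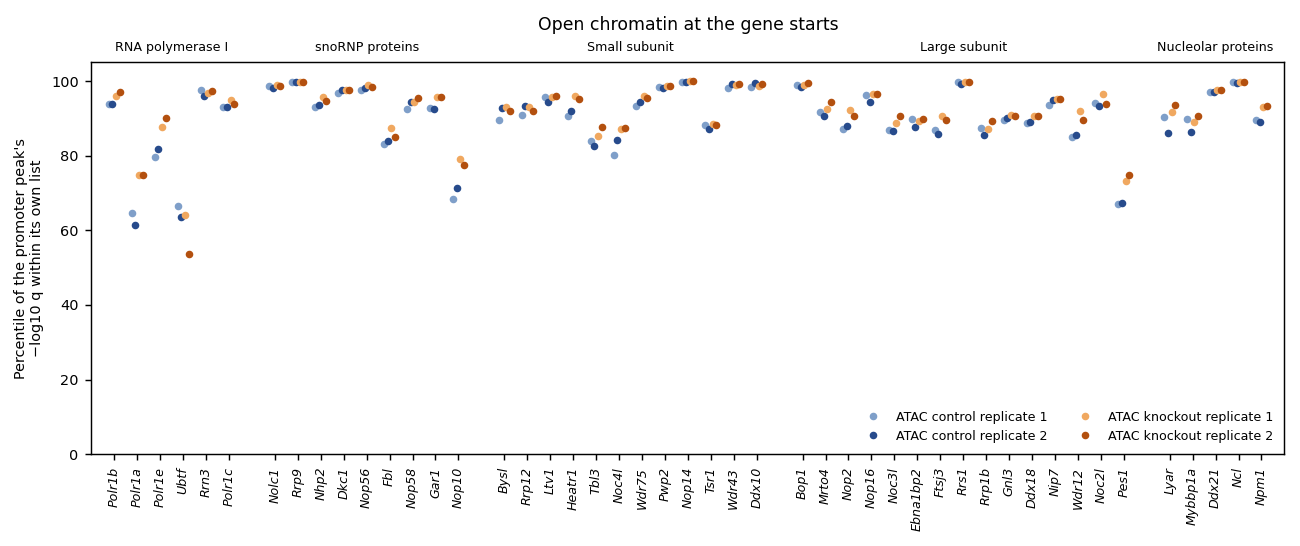
Percentile of the strongest peak within 500 bases of each gene start, by −log10 q among all peaks of its own ATAC list, for the 2 control (blue) and 2 knockout (orange) lists. Most genes sit above the 80th percentile in all 4 lists, and Ubtf, Polr1a, Pes1 and Nop10 sit lowest.

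RefSeq promoter sequences (GRCm38.p6, the build that mm10 denotes, from 250 bases before to 50 after the start) were matched by symbol for 41 of the 47 genes and searched on both strands for 4 motifs. The E-box CACGTG, which MYC and its partners bind and which reads the same on both strands, was in 7 of the 41 (17.1%), beside 10.2% of the 9845 promoters matched among tested genes. The ETS-type motif CCGGAAG was in 16 of 41 (39.0%) beside 18.7%, and TCGCGA in 5 of 41 (12.2%) beside 5.16%. CTTTGAT, a form of the TCF/LEF site, was in 1 of 41 (2.44%) beside 2.47%. The median log2 change was 0.50 in the 7 genes with an E-box and 0.66 in the other matched genes, and 0.55 in the 16 with the ETS-type motif against 0.67 without it. The 7 E-box promoters and the single promoter with the TCF/LEF letters are shown because these motifs belong to the factors named above. No match in them shared a base with another of the 4 motifs, and each printed stretch lay whole inside a peak in all 4 lists. Capitals mark the motif, and sequences run 5′ to 3′ on the gene's strand.
Rrn3 (chr16:13780449-13780698, + strand): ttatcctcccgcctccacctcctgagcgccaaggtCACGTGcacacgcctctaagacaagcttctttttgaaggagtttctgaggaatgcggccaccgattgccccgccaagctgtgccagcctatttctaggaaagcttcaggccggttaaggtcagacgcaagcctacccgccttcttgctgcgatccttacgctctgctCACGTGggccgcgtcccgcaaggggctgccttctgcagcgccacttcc
Nop2 (chr6:125131633-125131882, + strand): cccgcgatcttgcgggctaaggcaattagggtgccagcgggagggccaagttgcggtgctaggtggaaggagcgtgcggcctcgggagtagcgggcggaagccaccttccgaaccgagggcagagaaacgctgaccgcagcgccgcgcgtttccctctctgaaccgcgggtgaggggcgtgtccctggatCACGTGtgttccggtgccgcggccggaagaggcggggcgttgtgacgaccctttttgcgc
Pes1 (chr11:3963965-3963994, + strand): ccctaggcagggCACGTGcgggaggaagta
Wdr43 (chr17:71616220-71616249, + strand): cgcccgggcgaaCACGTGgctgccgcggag
Tsr1 (chr11:74898092-74898121, + strand): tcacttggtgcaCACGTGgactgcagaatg
Ltv1 (chr10:13193092-13193121, - strand): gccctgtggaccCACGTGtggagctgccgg
Mybbp1a (chr11:72441347-72441376, + strand): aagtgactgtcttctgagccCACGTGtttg
Noc4l (chr5:110653437-110653466, - strand): ctctccggcgctCTTTGATgacgtacgccg
In Rrn3 the matches began 215 and 48 bases before the start and in Nop2 60 bases before it. In Pes1, Wdr43, Tsr1, Ltv1 and Mybbp1a the match began 2, 17, 24, 28 and 40 bases after the start, which for Mybbp1a is RefSeq's and not that of the expression files. In Noc4l the TCF/LEF letters began 72 bases before the start. The printed Noc4l stretch also holds the start of Ddx51 (chromosome 5, 110653451, + strand), one of the other pathway genes below. Ddx51 had a log2 change of 0.25 and was not called (limma, adjusted p = 0.117). A match of letters is a description of the sequence, not a bound site.

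Regions open in only one genotype lay at a distance from most of these starts. A region with overlapping peaks in both control lists and in neither knockout list lay within 50 kb of the start of 19 of the 47 genes, beside 36.7% of all tested genes, and a knockout-only region near 19 of 47, beside 48.5%. These were 20 control-only and 31 knockout-only regions, with 8 genes near both kinds and 17 near neither. Over the whole genome there were 6490 control-only and 9007 knockout-only regions. The knockout lists were also longer, with 109380 and 111007 peaks against 103009 and 105227 in control. Absence from a peak list does not show that a region was closed. Those closest to a start were knockout-only regions 939 bases into Pes1 (chromosome 11, 3964802 to 3965027, mm10) and 1037 bases into Rrp12 (chromosome 19, 41895011 to 41895221), and a control-only region 2520 bases into Pes1 (chromosome 11, 3966378 to 3966613). The control-only region with the highest −log10 q, 26.7 and 19.2 in the control lists, lay at −5735 bases from the start of Rrp12 (chromosome 19, 41901757 to 41902020). Within 20 kb of a start, control-only regions were found for 3 of the 47 genes, beside 17.5% of all tested genes, and knockout-only regions for 13 of the 47, beside 25.0%. Whether the genotypes differ here was not tested.

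The RNA polymerase I genes had the lowest median log2 change of the 5 groups, 0.46. Polr1a and Polr1b encode the 2 largest, catalytic subunits. Polr1a measured 40.4 TPM in both control libraries and 63.8 and 60.0 TPM in knockout, a 1.53-fold difference of means (log2 change 0.60, SE 0.064). Standard errors (SE) here and below are limma's moderated values and not the spread of the gene's own libraries alone. Polr1b stood at 22.4 and 21.5 TPM in control and 35.7 and 35.2 TPM in knockout (1.62-fold; 0.67, SE 0.076). For both, knockout lay above control without overlap, as in 44.4% of all tested genes. The Polr1b to Polr1a ratio lay between 0.533 and 0.586 in all 4 libraries. Polr1e, the subunit that pairs with the product of Cd3eap, stood at 10.5 and 13.4 TPM in control and 16.8 and 18.6 TPM in knockout (0.54, SE 0.15), the lowest level and the widest relative spread of the group.

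Polr1c, a subunit that RNA polymerase I shares with RNA polymerase III, differed least. It stood at 45.9 and 42.6 TPM in control and 46.9 and 51.9 TPM in knockout (chromosome 17, 46243920 to 46248045, mm10; 1.12-fold; log2 change 0.16, SE 0.081), with the nearest libraries of the 2 genotypes close together. Its ratio to Polr1a was 1.14 and 1.05 in control and 0.736 and 0.864 in knockout. Ubtf, the factor that keeps ribosomal DNA in an active state, stood at 96.0 and 97.9 TPM in control and 121 and 133 TPM in knockout (0.39, SE 0.061). Rrn3, which links the polymerase to its promoter and carries the pair of E-boxes shown above, stood at 28.8 and 30.2 TPM in control and 39.1 and 38.3 TPM in knockout (0.38, SE 0.072). Both had a 1.31-fold difference of means.

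The 9 snoRNP genes had similar changes, all lying between 1.41-fold and 1.78-fold with a median log2 change of 0.67. Box C/D snoRNPs place methyl groups on ribosomal RNA through the methyltransferase fibrillarin, encoded by Fbl, on a scaffold of Nop56 and Nop58. Nop56, the most abundant gene of the group, stood at 209 and 201 TPM in control and 321 and 334 TPM in knockout (log2 change 0.67, SE 0.043). Fbl stood at 188 and 181 TPM in control and 270 and 298 TPM in knockout (0.62, SE 0.059). Nop58 stood at 174 and 170 TPM in control and 264 and 253 TPM in knockout (0.58, SE 0.043). The knockout values of all 3 lay above their control values, the pattern that 44.4% of all tested genes showed.

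Box H/ACA snoRNPs convert uridines to pseudouridine through dyskerin, encoded by Dkc1, with Nhp2, Nop10 and Gar1 as partners. Their log2 changes were 0.68 (Dkc1, SE 0.052), 0.75 (Nhp2, SE 0.061), 0.49 (Nop10, SE 0.077) and 0.51 (Gar1, SE 0.088). Nop10, the smallest change of the group, stood at 89.5 and 93.6 TPM in control and 120 and 138 TPM in knockout. Nolc1, a chaperone of snoRNPs in the nucleolus and the largest change of the group, stood at 102 and 112 TPM in control and 192 and 186 TPM in knockout (1.78-fold; 0.82, SE 0.060). Rrp9, a protein of the snoRNP that starts small-subunit processing, stood at 35.7 and 36.9 TPM in control and 64.6 and 59.4 TPM in knockout (0.76, SE 0.071). In each of these genes the knockout libraries lay above the control libraries, again as in 44.4% of all tested genes.

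Small-subunit factors had a median log2 change of 0.65 over 12 genes, with the widest range of folds among the processing groups. Bysl, which encodes bystin and acts late in small-subunit maturation, stood at 12.7 and 15.5 TPM in control and 32.1 and 31.1 TPM in knockout (chromosome 17, 47599331 to 47611492, mm10; 2.25-fold; log2 change 1.12, SE 0.12). Its span overlaps that of Ccnd3 on the opposite strand, the limit given above for 10 of the genes. Rrp12, a factor of subunit export and maturation, stood at 20.9 and 19.98 TPM in control and 40.9 and 43.9 TPM in knockout (chromosome 19, 41862851 to 41896153; 2.07-fold; 1.02, SE 0.081). For both genes the lowest knockout value was far above the highest control value. Knockout above control without overlap was itself the pattern of 44.4% of all tested genes.

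Wdr43, Wdr75 and Heatr1 belong to the subcomplex of the small-subunit processome that also acts on RNA polymerase I transcription. Wdr43, the most abundant gene of the group, stood at 133 and 129 TPM in control and 183 TPM in both knockout libraries (0.48, SE 0.042). Heatr1 stood at 43.2 and 38.0 TPM in control and 70.9 and 67.2 TPM in knockout (0.75, SE 0.082), and Wdr75 had a log2 change of 0.59 (SE 0.066). Nop14, a processome core factor, stood at 98.7 and 106 TPM in control and 150 and 152 TPM in knockout (0.56, SE 0.052).

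Ddx10, an RNA helicase of the same pathway, had the smallest difference of the small-subunit genes, at 86.3 and 79.0 TPM in control and 99.2 and 99.1 TPM in knockout (0.26, SE 0.061). The processome proteins Tbl3 and Pwp2 had log2 changes of 0.71 and 0.57, and Noc4l, a partner of Nop14, 0.70. The later-acting Ltv1 and Tsr1, which sit on the maturing small subunit, had log2 changes of 0.77 and 0.50. None of these had overlapping groups, with knockout above control as in 44.4% of all tested genes.

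Large-subunit factors had the largest median change of the 5 groups, 0.71 over 15 genes, and their members differed within one complex. Bop1, Pes1 and Wdr12 encode the PeBoW complex of large-subunit maturation. Bop1 stood at 27.0 and 30.1 TPM in control and 63.1 and 55.0 TPM in knockout (chromosome 15, 76452996 to 76477269, mm10; 2.07-fold; log2 change 1.02, SE 0.098). Pes1 stood at 82.6 and 85.3 TPM in control and 106 and 103 TPM in knockout (1.24-fold; 0.31, SE 0.051), the smallest change of the group. Wdr12 stood at 62.8 and 62.4 TPM in control and 94.2 and 83.8 TPM in knockout (0.50, SE 0.072). The Bop1 to Pes1 ratio was therefore 0.327 and 0.353 in control and 0.596 and 0.536 in knockout, the ratios of the 2 genotypes lying well apart.

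Mrto4, a large-subunit assembly factor related to a protein of the ribosomal stalk, stood at 37.8 and 29.0 TPM in control and 69.0 and 66.9 TPM in knockout (2.04-fold; 1.02, SE 0.13). Nop2, a methyltransferase of large-subunit RNA whose promoter holds an E-box, stood at 45.3 and 44.9 TPM in control and 85.4 TPM in both knockout libraries (1.89-fold; 0.91, SE 0.054). Noc2l, the most abundant gene of the group, stood at 225 TPM in both control libraries and 282 and 293 TPM in knockout (1.28-fold; 0.35, SE 0.039). Its complex partner Noc3l had a log2 change of 0.80 (SE 0.078). Gnl3, which encodes the nucleolar GTPase nucleostemin, stood at 107 and 118 TPM in control and 182 and 180 TPM in knockout (0.68, SE 0.060). The other members, Nop16, Ebna1bp2, Ftsj3, Rrs1, Rrp1b, Ddx18 and Nip7, had log2 changes of 0.88, 0.77, 0.74, 0.71, 0.69, 0.65 and 0.52, with Nip7 the lowest of the group in level at 14.5 and 15.5 TPM in control.

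The abundant and regulatory nucleolar proteins held both the largest and one of the smallest changes of the set. Lyar, a nucleolar zinc-finger protein linked to cell growth, stood at 71.5 and 73.3 TPM in control and 174 and 184 TPM in knockout (chromosome 5, 38220482 to 38234306, mm10; 2.48-fold; log2 change 1.30, SE 0.051). Npm1, nucleophosmin, the most abundant gene of all 47, stood at 1858 and 1825 TPM in control and 2054 and 2350 TPM in knockout (1.19-fold; 0.25, SE 0.065), with the knockout libraries apart from each other by more than the lower of them was from control. Reads of Npm1 may be shared with its processed pseudogenes, and the sources used here do not say how such reads were assigned.

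Ncl, nucleolin, stood at 694 and 695 TPM in control and 1012 and 1034 TPM in knockout (chromosome 1, 86344719 to 86359455; 1.47-fold; 0.56, SE 0.030). The Npm1 to Ncl ratio was 2.68 and 2.62 in control and 2.03 and 2.27 in knockout. Mybbp1a, a nucleolar regulator of ribosomal RNA processing, stood at 147 TPM in both control libraries and 249 and 251 TPM in knockout (0.77, SE 0.038). Ddx21, a helicase that binds ribosomal DNA and snoRNAs, stood at 155 TPM in both control libraries and 232 and 231 TPM in knockout (0.58, SE 0.038). In these 3 genes the replicates differed by little beside the gap between genotypes. Of all 47 genes, 6 (Ncl, Nop56, Nop58, Wdr43, Tsr1 and Gnl3) hold 11 snoRNA genes on their own strand. The levels of these snoRNAs were not compared with those of their hosts.

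**Figure D3:**
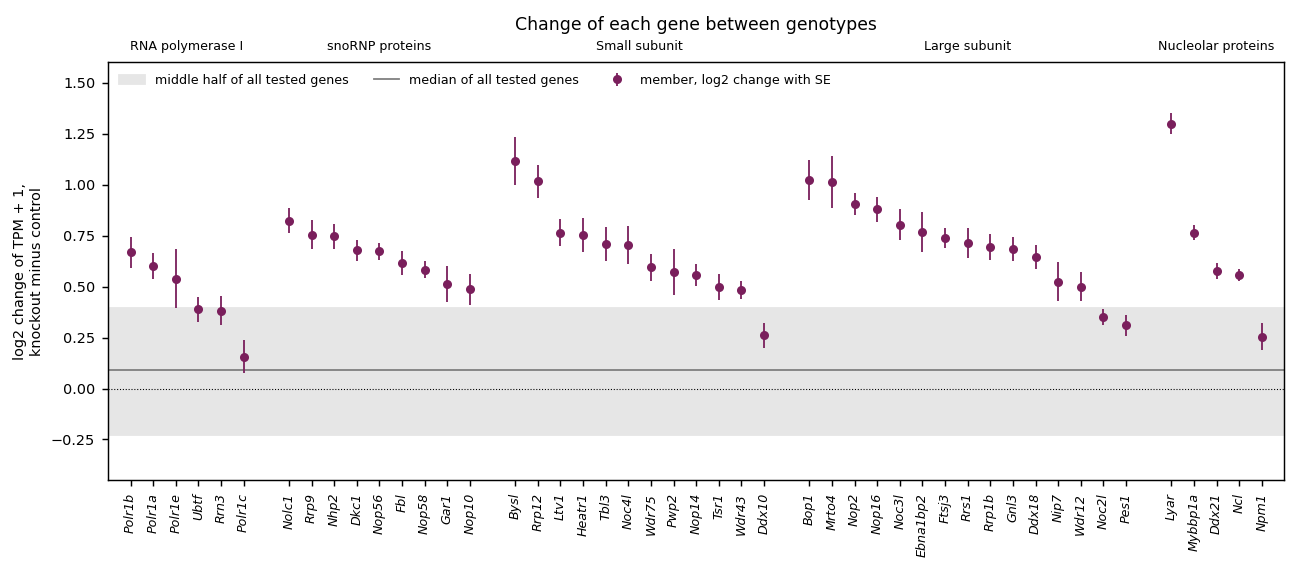
Log2 change (knockout minus control, log2 of TPM + 1) of each of the 47 genes with limma's moderated standard error, over 2 libraries a genotype. The line gives the median (0.09) and the grey band the interquartile range (−0.23 to 0.39) of all 13228 tested genes. Of the 47, 40 lie above the grey band, and Polr1c (0.16) lies lowest.

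Summed by group, the levels were 1.35-fold higher in knockout for RNA polymerase I, 1.58-fold for snoRNP proteins, 1.51-fold for small-subunit factors, 1.55-fold for large-subunit factors and 1.34-fold for the abundant nucleolar proteins. The snoRNP sums were 1045 and 1041 TPM in control and 1651 and 1652 TPM in knockout. Those of the nucleolar proteins were 2926 and 2895 TPM in control and 3722 and 4050 TPM in knockout, and most of that total was Npm1. Without Npm1 and Ncl the sum of the remaining 45 genes was 3177 and 3193 TPM in control and 4979 and 4991 TPM in knockout, a 1.57-fold difference beside 1.43-fold for all 47. As deposited and in each of the 13 alternative settings, RNA polymerase I had the lowest group median and the large-subunit group the highest. Those settings reprocess the same 47 genes, which were chosen with this contrast known. By summed level, as given above, the snoRNP proteins had the largest fold and the nucleolar proteins the smallest.

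**Figure D4:**
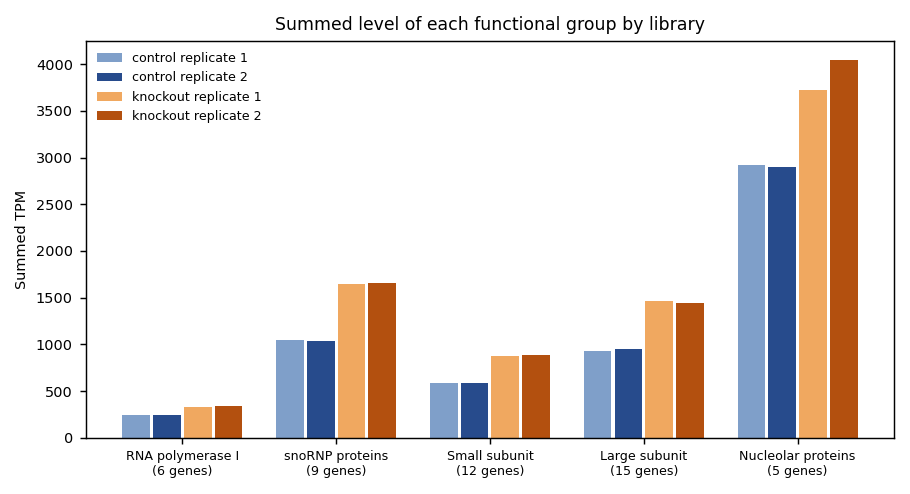
Summed TPM of the genes of each group in each RNA library, with bars from 0. Replicate bars of a genotype are close together except for the nucleolar proteins in knockout (3722 and 4050 TPM), and both knockout bars exceed both control bars in every group.

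A further 115 genes of the pathway were listed by their known roles rather than by their change. Of these, 78 (67.8%) rose, 3 fell and 34 did not pass the test (limma, adjusted p under 0.05), beside the 25.2% of all genes called higher and 14.7% called lower, with a median log2 change of 0.36. By group, 8 of 14 RNA polymerase I genes, 6 of 10 snoRNP genes, 29 of 43 small-subunit genes and 34 of 47 large-subunit genes rose, and the histone chaperone gene Npm3 rose too. The median log2 changes of these groups were 0.21, 0.39, 0.34 and 0.37 in that order, so the large-subunit median was not the highest here. Most of the RNA polymerase I genes that rose, Polr1d and the Polr2 genes, encode subunits shared with other RNA polymerases. Of the 78, 44 passed under every alternative setting. The list was written with the results of the 47 known and is not independent of them.

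The largest rises of this list were in Utp20, Rrp15, Nol10, Rpf2 and Pno1. Utp20, a small-subunit processome scaffold, rose from 24.9 and 26.3 TPM in control to 50.8 and 51.5 TPM in knockout (limma, log2 change 0.97, SE 0.071, adjusted p = 0.000731). Rrp15, a large-subunit factor, rose from 60.8 and 70.8 to 125 and 133 TPM (0.96, SE 0.085). Nol10 and Pno1, both of the small-subunit path, had log2 changes of 0.93 and 0.90. Rpf2, which helps to dock a small ribosomal RNA on the large subunit, stood at 19.1 and 33.0 TPM in control and 47.7 and 49.3 TPM in knockout (0.92, SE 0.24), and its call (limma, adjusted p = 0.0315) was lost without knockout replicate 1 (adjusted p = 0.111), without knockout replicate 2 (0.117) and without the filter on low values (0.0644). Its log2 change was 0.54 without control replicate 1 and 1.30 without control replicate 2.

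The 3 falls were all of large-subunit factors. Gltscr2, now named Nop53, which recruits the RNA exosome to the maturing large subunit, fell from 373 and 360 TPM to 280 and 271 TPM (limma, log2 change −0.41, SE 0.040, adjusted p = 0.00147) and passed under all 13 alternatives. Sbds, the Shwachman-Diamond syndrome protein that helps to release a late assembly factor from the large subunit, stood at 67.3 and 68.3 TPM in control and 57.3 and 50.3 TPM in knockout (−0.33, SE 0.078, limma adjusted p = 0.0228). Its call was lost without control replicate 1, control replicate 2 or knockout replicate 2 (adjusted p = 0.0958, 0.108 and 0.0679). Nsa2 stood at 180 and 179 TPM in control and 163 TPM in both knockout libraries (−0.14, SE 0.039, limma adjusted p = 0.0392). That call was lost with the replicate number as a block (0.0777), without the filter on low values (0.0557) and without each library in turn (0.104 to 0.121).

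Changes of the RNA polymerase I subunits outside the 47 ran from 0.04 to 0.82. Cd3eap, the subunit now named Polr1g, rose from 30.5 and 27.7 TPM to 43.6 and 46.7 TPM (limma, log2 change 0.62, SE 0.084, adjusted p = 0.00391), close to Polr1a and Polr1b. Twistnb (Polr1f) and Znrd1 (Polr1h) had log2 changes of 0.04 (SE 0.070) and 0.06 (SE 0.13) and did not pass (limma, adjusted p = 0.689 and 0.745). Polr1d, shared with RNA polymerase III as Polr1c is, stood at 150 and 152 TPM in control and 164 and 171 TPM in knockout (0.14, SE 0.044). It passed narrowly (limma, adjusted p = 0.0474) and lost that call under 11 of 13 alternatives, among them each left-out library, with a change of −0.01 after quantile normalization. The small subunits common to all nuclear RNA polymerases, Polr2f, Polr2l, Polr2h, Polr2k and Polr2e, rose by 0.82, 0.72, 0.65, 0.43 and 0.38. Of these, Polr2h and Polr2l passed under every alternative. The call of Polr2f was lost without control replicate 1 (limma, adjusted p = 0.0503), and those of Polr2e and Polr2k without control replicate 2 or knockout replicate 1 (up to 0.0525 and 0.108), that of Polr2k also without knockout replicate 2, after median-ratio scaling and without the filter. Of the polymerase I factors of the list that are not subunits, Taf1d rose by 0.22, a call lost after median-ratio scaling and quantile normalization. Taf1a, Taf1b, Taf1c and Ttf1 had log2 changes of 0.19, 0.18, −0.02 and 0.02. None of them passed (limma, adjusted p = 0.251, 0.146, 0.898 and 0.880). The genes were singled out after their values were seen.

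Among the snoRNP genes of the list, the ATPase genes Ruvbl1 and Ruvbl2 rose by 0.61 (SE 0.049) and 0.67 (SE 0.052), Znhit6 by 0.81 (SE 0.088) and Tcof1, whose product treacle links polymerase I to snoRNPs, by 0.46 (SE 0.061). Each of these 4 calls held in all 13 alternatives. Shq1 (0.65) and Nhp2l1 (0.31) also rose, the call of Shq1 being lost without control replicate 1, control replicate 2 or knockout replicate 2 (limma, adjusted p up to 0.0927). That of Nhp2l1 was lost in 8 of 13 alternatives, among them without control replicate 1, knockout replicate 1 or knockout replicate 2 (limma, adjusted p up to 0.181). Naf1, Znhit3, Nufip1 and Pih1d1 had log2 changes of 0.24, 0.24, 0.17 and 0.17 and did not pass (limma, adjusted p = 0.119, 0.0690, 0.2001 and 0.292). These 10 are all the snoRNP genes of the list, and they were singled out after their values were seen.

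**Figure D5:**
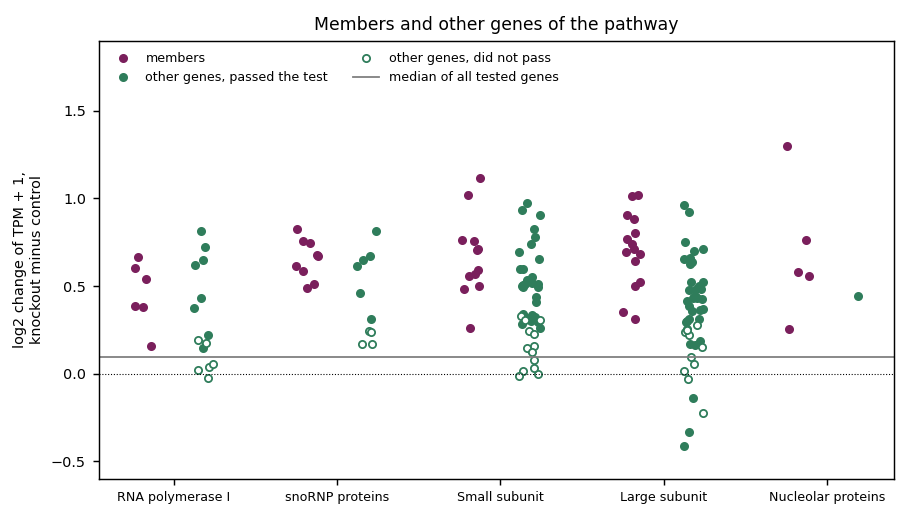
Log2 change (knockout minus control, log2 of TPM + 1) of the 47 genes (purple) and of the other 115 genes of the pathway (green; filled where limma's adjusted p was under 0.05, open where not), by group. The purple points lie above 0 throughout, while the green points reach from −0.41 (Gltscr2) to 0.97 (Utp20).

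Genes of the MYC network, which act through the E-box, were listed for context. Myc stood at 213 and 215 TPM in control and 217 and 252 TPM in knockout, short of the threshold (log2 change 0.13, SE 0.076, limma adjusted p = 0.238). The change of Myc depended on the knockout libraries: it was 0.23 without knockout replicate 1, where it passed (limma, adjusted p = 0.0311), and 0.02 without knockout replicate 2 (adjusted p = 0.810). It was 0.02 after median-ratio scaling, 0.06 without Rpph1 and −0.05 after quantile normalization. Neither Mycn (−0.10, adjusted p = 0.286) nor Max (0.11, adjusted p = 0.316) passed. Mxd1, Mxi1 and Mnt, whose products compete with MYC for MAX and repress, were lower in knockout. Mxd1 fell from 25.8 and 23.5 TPM to 13.9 and 14.7 TPM (limma, log2 change −0.75, adjusted p = 0.00381) and passed under all 13 alternatives. Mxi1 fell from 26.5 and 25.4 TPM to 17.1 and 19.6 TPM (−0.48), a call lost without control replicate 1, control replicate 2 or knockout replicate 1 (limma, adjusted p up to 0.0891). Mnt fell from 28.5 and 31.9 TPM to 23.3 TPM in both (−0.36), a call lost without any single library (up to 0.123). Whether these levels bear on the 47 genes was not tested.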

How the data were processed

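RNA and ATAC-seq files of 8 libraries were used. The submitters' processing notes name HISAT2, StringTie, Bowtie2, MACS2 and the build mm10, with no versions or settings. Per the file headers, the RNA files hold TPM, which sums to 1000000 a library. The deposited FPKM served as an alternative unit. The deposited coverage, a signal per gene, entered as a ratio to FPKM, which follows depth: its median was 2.41 and 2.12 in control and 2.64 and 2.63 in knockout. No read counts were analysed here, and counting error is therefore not given. The authors' peak lists, 1 per library and not pooled, hold for each peak a fold enrichment and a −log10 q (and p), and ATAC depth is unknown.

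Entries of one gene were summed. log2(TPM + 1) was fitted with limma 3.58.1 (eBayes with trend, R 4.3.3) over 13228 genes (mean of 1 TPM or more), genotype as the only term, with Benjamini-Hochberg adjustment and a threshold of 0.05. On this scale the changes of low genes are understated. Each SE is limma's moderated value, in which the gene's variance is drawn towards a trend over all genes. The fit was tested on simulated data with independent noise and few genes changed. These data differ from that setting, so nothing about the calls here is concluded from it. Chromosome M peaks were left out. Promoter windows reached 500 bases either side of the gene start in the expression files. Overlaps needed at least 1 base. Rpph1, a non-coding RNA, took 19.3% and 19.2% of all TPM in control and 15.2% and 15.8% in knockout, so an alternative rescaled TPM without it, added once the data had been seen. The rule for named genes took all 6 of RNA polymerase I, and in each other group the 2 most abundant, the largest rise and the largest fall (with no falls, the smallest rise), with further members given by value. For the other pathway genes the rule was the 5 largest rises and 5 largest falls among those called, of which there were 3 falls. The members and lists were chosen with earlier results of these data known.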

Additional observations from a re-analysis of the deposited data

How the results depend on the processing

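The 13 alternatives changed the pseudocount, the filter, the scaling or unit (TPM, FPKM), the replicate term or the libraries used. Calls of the 47 genes as higher ranged from 41 to 46, and 38 genes were called in every alternative. The other 9 were Polr1c (never called), Polr1e, Rrn3, Nop10, Gar1, Pwp2, Ddx10, Nip7 and Npm1, with a highest adjusted p of 0.635, 0.143, 0.0592, 0.0523, 0.0566, 0.0698, 0.0881, 0.0569 and 0.150 in limma. Of these, Rrn3, Nop10, Gar1, Pwp2 and Nip7 lost the call only where 1 library was left out: Nop10 without control replicate 1, Gar1 without control replicate 2, Rrn3 and Nip7 without control replicate 1 or knockout replicate 1, and Pwp2 without either knockout replicate. The median change of the 47 fell to 0.57 after median-ratio scaling and 0.54 after quantile normalization, where that of all genes was −0.0030 and 0.030. Calls over all genes were 63.2% higher as deposited, 49.4% after median-ratio scaling, 53.2% after quantile normalization and 54.2% without Rpph1.

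With 1 library left out, calls over all genes ranged from 2005 to 2242 higher and 1088 to 1450 lower (3331 and 1940 with all 4), and falls among the other pathway genes from 1 to 2. The lone library of a genotype is then assumed to vary like the others. With the replicate number as a block, 46 of the 47 and 3072 genes in all were called higher. Deviations of same-numbered libraries had a correlation of 0.00432 across genes, so no shared deviation was seen. That value cannot tell if same-numbered libraries came from the same mouse or culture. Within 20 kb in place of 50 kb, a smaller window, genes near a control-only region numbered 3 in place of 19 and those near a knockout-only region 13 in place of 19. Over all tested genes the shares became 17.5% in place of 36.7% and 25.0% in place of 48.5%. All 47 genes kept a promoter peak in all 4 lists with a wider window, a −log10 q of at least 10 and an overlap of at least 50 bases. Within 250 bases 46 did, all but Ubtf.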
